A study of Mus musculus with 12 samples.

Results

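The Tead family and its Hippo pathway partners are 10 genes taken by symbol from the deposited count table. They are the 4 TEAD factors Tead1, Tead2, Tead3 and Tead4, the coactivators Yap1 and Wwtr1 (which encodes TAZ), the cofactors Vgll3 and Vgll4, and the feedback genes Lats2 and Amotl2. All 10 were present among the 24470 genes of the table and all 10 passed the filter on low counts, as did 15572 genes in all. The Hippo pathway is a chain of kinases, Stk3 and Stk4 followed by Lats1 and Lats2, which phosphorylates YAP and TAZ and keeps them out of the nucleus. When the kinases are inactive, YAP and TAZ bind the TEAD proteins, which recognise DNA but activate little alone, and switch on target genes that include feedback inhibitors such as Lats2 and Amotl2. Vestigial-like (VGLL) proteins bind the TEAD proteins in place of YAP and TAZ, and the pathway as a whole is known for its control of organ size and of contractile and mesenchymal cell states.

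The genes were measured by stranded mRNA-seq in whole fetal mouse testes at E14.5, in 6 control pools and 6 cKO pools of 3 testes each. The study asked what NR2F2, an orphan nuclear receptor of the non-steroidogenic interstitial cells, does in the fetal testis. Control testes were Nr2f2 f/f and cKO testes were Wt1 CreER x Nr2f2 f/f, so both groups carried the floxed Nr2f2 allele, whose LacZ cassette is expressed after deletion, and the pregnant females carrying both had received tamoxifen on 2 earlier embryonic days. The Cre was driven by Wt1 in somatic progenitors and deleted Nr2f2 in most but not all interstitial cells. No label ties a pool to a litter, so p-values here measure the spread between pools.

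Total counts ran from 7044531 to 59404778 per library, and the lowest count in any library was 24 for Vgll3, 25 for Tead4 and 231 for Tead3. Nr2f2 was at 169, 177, 186, 184, 163 and 174 CPM (the usual count per library size, with TMM scaling) in control replicates 1 to 6 and at 78.9, 119, 75.4, 78.8, 50.2 and 53.6 CPM in cKO replicates 1 to 6, so each cKO library lay under each control. A set of 4 libraries stood apart. Xist was at 891 CPM in control replicate 1 and at 304, 507 and 433 CPM in cKO replicates 3, 5 and 6, against 5.15 to 7.68 CPM in the other 8, and Foxl2, an ovarian supporting cell gene, was at 14.6 to 47.2 CPM in these 4 and at 0.23 to 1.3 CPM in the others. The summed level of 6 ovarian supporting cell markers was 141 to 315 CPM in these 4 and 66.7 to 92.8 CPM in the others. The labels call all 12 testis, and whether these 4 pools, 3 of them cKO, hold ovarian tissue was not tested. The comparison of each of the 10 genes is therefore also given for the 8 libraries with Xist under 100 CPM, 5 control and 3 cKO, in which Nr2f2 had a log2 fold change of -0.94 (adjusted p = 0.00257 by edgeR).

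Tead3, Vgll3 and Amotl2 were lower in cKO testes and the other 7 genes did not pass the test. Vgll3 was at 36.4% of its control mean, Tead3 at 71.4% and Amotl2 at 80.5%. By the quasi-likelihood test of edgeR, with p-values adjusted by Benjamini-Hochberg over all genes tested, 3 of the 10 genes were called lower and none higher, with 5 at an unadjusted p under 0.05 (3929 of all 15572 genes tested), beside 4.85% of all genes called lower and 3.28% called higher. DESeq2 called 4 lower and none higher, beside 1905 of all genes called in both directions. The fitted log2 fold change was negative for all 10, with a median of -0.20 against 0.00 over all genes tested. In the 8 low-Xist libraries, 2 of the 10 were called and the median was -0.12. Of all 15586 genes tested there 1103 were called, 529 of them lower. Each cKO library lay under each control for 2 of the 10 genes, Tead3 and Amotl2, against 3.13% of all genes.

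**Figure D1:**
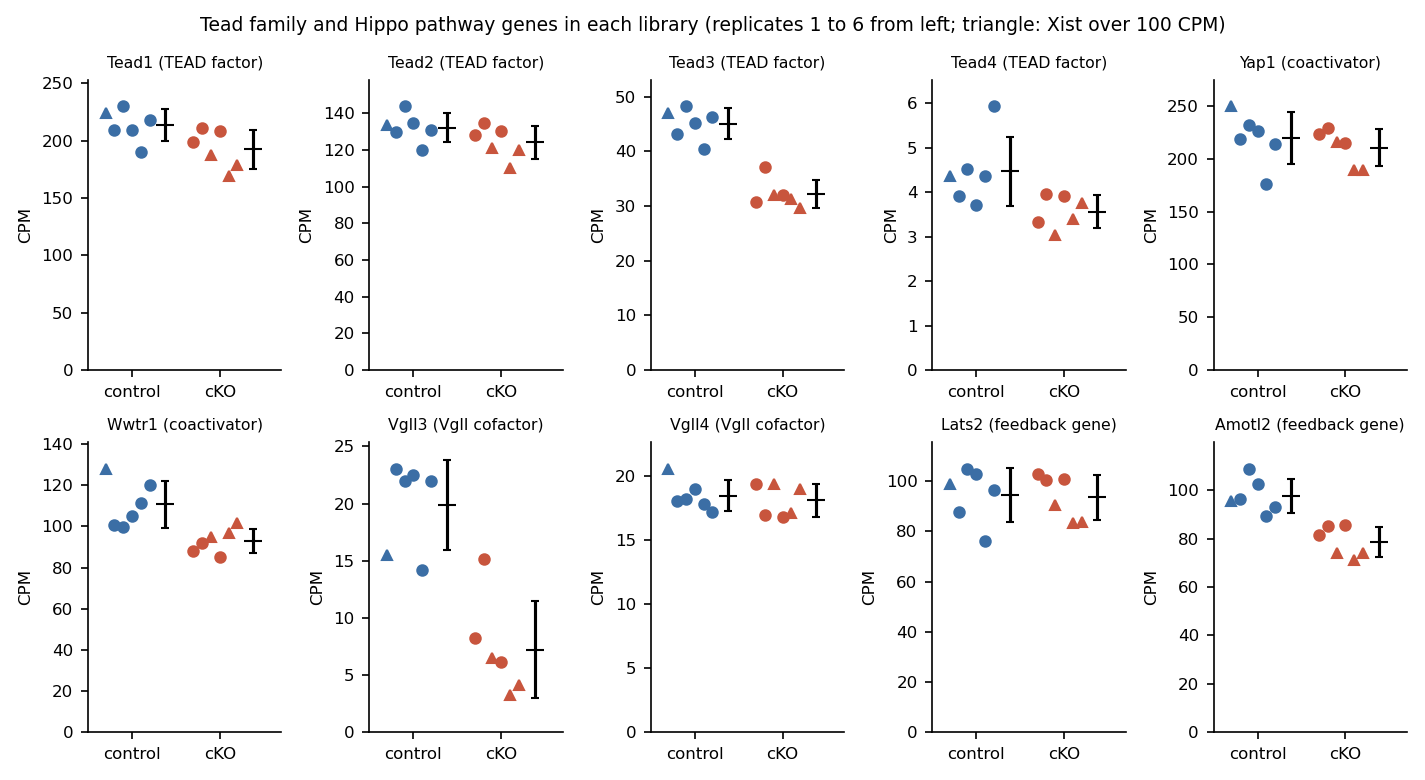
TMM-scaled CPM (linear axes from 0) of each of the 10 genes in each library, control in blue and cKO in red, with replicates 1 to 6 from left to right. Triangles are the 4 libraries with Xist over 100 CPM, and the black bar is the mean with its SD (n = 6). Tead3 and Amotl2 separate fully, Vgll3 separates but for cKO replicate 2 at 15.1 CPM, and the groups overlap for the others.

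The upstream sequences of the 3 called genes are shown because the sites that TEAD proteins and nuclear receptors such as NR2F2 recognise can be read in them. Each is the 250 bases before the start site in RefSeq (GRCm38.p6, the mm10 assembly), written 5′ to 3′ on the gene's strand, with the start nearest the 5′ end in the deposited table where RefSeq gives several. Capitals mark GGAATG or its reverse complement CATTCC, the core of the TEAD site, and AGGTCA or its reverse complement TGACCT, the half-site of nuclear receptors. Both strands were searched and the motifs share no overlapping match here. The windows are chr17:28350806-28351055 (minus strand) for Tead3, chr16:65814939-65815188 (plus strand) for Vgll3 and chr9:102717554-102717803 (plus strand) for Amotl2.
Tead3: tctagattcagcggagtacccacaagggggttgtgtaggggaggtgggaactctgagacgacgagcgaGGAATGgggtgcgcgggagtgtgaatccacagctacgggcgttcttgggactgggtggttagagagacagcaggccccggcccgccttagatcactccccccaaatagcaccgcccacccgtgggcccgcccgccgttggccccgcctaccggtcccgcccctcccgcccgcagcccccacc
Vgll3: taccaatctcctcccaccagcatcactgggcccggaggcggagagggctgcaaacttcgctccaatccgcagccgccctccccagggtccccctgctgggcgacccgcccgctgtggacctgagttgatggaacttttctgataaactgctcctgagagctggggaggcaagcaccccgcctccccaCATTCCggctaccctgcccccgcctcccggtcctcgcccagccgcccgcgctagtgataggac
Amotl2: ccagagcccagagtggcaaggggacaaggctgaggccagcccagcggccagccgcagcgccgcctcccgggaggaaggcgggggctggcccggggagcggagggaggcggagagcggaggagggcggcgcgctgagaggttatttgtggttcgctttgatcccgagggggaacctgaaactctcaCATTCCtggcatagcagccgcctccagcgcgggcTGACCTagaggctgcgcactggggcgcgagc

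Of the 10 genes, 8 had such a window, Tead1 and Tead4 being the ones without. The TEAD core was present in 6 of the 8, beginning 182 bases before the start of Tead3, 141 before Yap1, 136 before Wwtr1, 82 before Vgll4, 65 before Amotl2 and 63 before Vgll3. It was absent from the windows of Tead2 and Lats2. Of all 32851 windows of 250 bases, 12.6% held it. The half-site was present in 1 of the 8, beginning 31 bases before the start of Amotl2, and in 14.0% of all windows. RefSeq gives 3 starts for Tead3 and 2 each for Wwtr1 and Lats2. The TEAD core was also in 1 of the other 2 windows of Tead3 and in the other window of Wwtr1, which held a half-site too, and neither motif was in the other window of Lats2. Called and uncalled genes both held the TEAD core, and a match of 6 letters is a description of these windows, not a binding site. The RefSeq start of Vgll3 lies 444 bases and that of Vgll4 47451 bases from the 5′ end of the interval in the deposited table, so for Vgll4 another start may be the one read here.

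Among the TEAD factors, which bind DNA for the whole complex, Tead3 was lower in cKO testes and Tead1, Tead2 and Tead4 did not pass the test. Tead3 (Entrez Gene 21678, chr17:28331671-28350805 in mm10, minus strand) was at 47.0, 43.1, 48.2, 45.2, 40.5 and 46.3 CPM in control replicates 1 to 6 and at 30.8, 37.2, 32.0, 32.0, 31.3 and 29.7 CPM in cKO replicates 1 to 6. Every cKO pool was under the lowest control, and cKO replicate 2, which also kept the most Nr2f2, was the highest of the cKO pools. The other cKO pools did not follow Nr2f2 in order. Replicate 1, with 78.9 CPM of Nr2f2, had less Tead3 than replicate 5, which had the least Nr2f2 (50.2 CPM). The mean of Tead3 fell from 45.1 ± 2.82 to 32.2 ± 2.62 CPM (SD, n = 6 each), a log2 fold change of -0.49 (SE 0.07, 95% interval -0.64 to -0.34, adjusted p = 0.000818). By p-value Tead3 ranked 101 among all genes tested. With any one library left out the log2 fold change was between -0.53 and -0.46 and stayed called. In the 8 libraries with low Xist it was -0.42 (SE 0.09, adjusted p = 0.0183), and all 3 cKO pools were under all 5 controls.

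Tead1 (Entrez Gene 21676, chr7:112679320-112906805, plus strand) was at 224, 209.5, 229.8, 209, 189.8 and 218 CPM in the controls and at 199, 211, 188, 209, 169 and 179 CPM in the cKO pools. The groups overlapped, and the 3 cKO pools with high Xist were the lowest of all 12. Control replicate 1, also high in Xist, was at 224 CPM. The log2 fold change was -0.15 (SE 0.07, 95% interval -0.30 to 0.00, adjusted p = 0.202), and -0.03 (adjusted p = 0.816) in the low-Xist libraries.

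Tead2 (Entrez Gene 21677, chr7:45215753-45233619, plus strand), a TEAD factor prominent in embryonic tissue, ran from 120.2 to 144 CPM in the controls, with a median of 132, and from 110.2 to 135 CPM in the cKO pools, with a median of 125. The difference was -0.09 on the log2 scale (SE 0.06, 95% interval -0.23 to 0.05, adjusted p = 0.388), and -0.0038 in the low-Xist libraries. In the cKO pools with high Xist Tead2 was at 110.2 to 121 CPM and in those with low Xist at 128 to 135 CPM. As with Tead1, the values of the cKO group therefore split by Xist. Control replicate 1, also high in Xist, was at 134 CPM, within the range of the other controls. The cKO pools high in Xist also had the least Nr2f2, at 50.2 to 75.4 CPM against 78.8 to 119 CPM in the other cKO pools. The part of the Xist-high libraries in the difference was not tested further.

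Tead4 (Entrez Gene 21679, chr6:128227143-128300813, minus strand), best known from the trophectoderm and from muscle, was scarce. It ran from 3.72 to 5.93 CPM in the controls, with a median of 4.36, and from 3.04 to 3.97 CPM in the cKO pools, with a median of 3.57. The log2 fold change was -0.31 (SE 0.13, adjusted p = 0.168), close in size to that of Amotl2 but with overlapping groups. Without control replicate 6, the highest control, it was -0.23, and in the low-Xist libraries it was also -0.23 (adjusted p = 0.362).

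Set against the other TEAD factors within each library, the lower level of Tead3 stood out. For the 9 pairs of genes that share a role, log2 ratios of CPM were compared between groups by a two-sided exact permutation test over all 924 splits, in which the smallest possible p is 0.00216, with Benjamini-Hochberg adjustment over the 9 pairs. The ratio of Tead1 to Tead3 rose from 2.24 ± 0.03 to 2.58 ± 0.11 on the log2 scale (SD, n = 6 each), a difference of 0.33 (exact p = 0.00216, adjusted 0.00649), and each cKO pool was above each control. The ratio of Tead2 to Tead3 rose from 1.55 ± 0.04 to 1.95 ± 0.10, a difference of 0.39 (exact p = 0.00216, adjusted 0.00649), again with no overlap. The ratio of Tead1 to Tead2 differed by -0.06 (exact p = 0.0260, adjusted 0.0468), which is a change of a few per cent, and 3 of 6 cKO pools were under all controls. The 3 ratios to Tead4 did not pass, with exact p from 0.0758 to 0.177, the lowest for Tead2 to Tead4. In the low-Xist libraries the differences were 0.39 for Tead1 to Tead3, 0.42 for Tead2 to Tead3, -0.03 for Tead1 to Tead2, and 0.22, 0.24 and -0.17 for Tead1, Tead2 and Tead3 to Tead4.

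**Figure D2:**
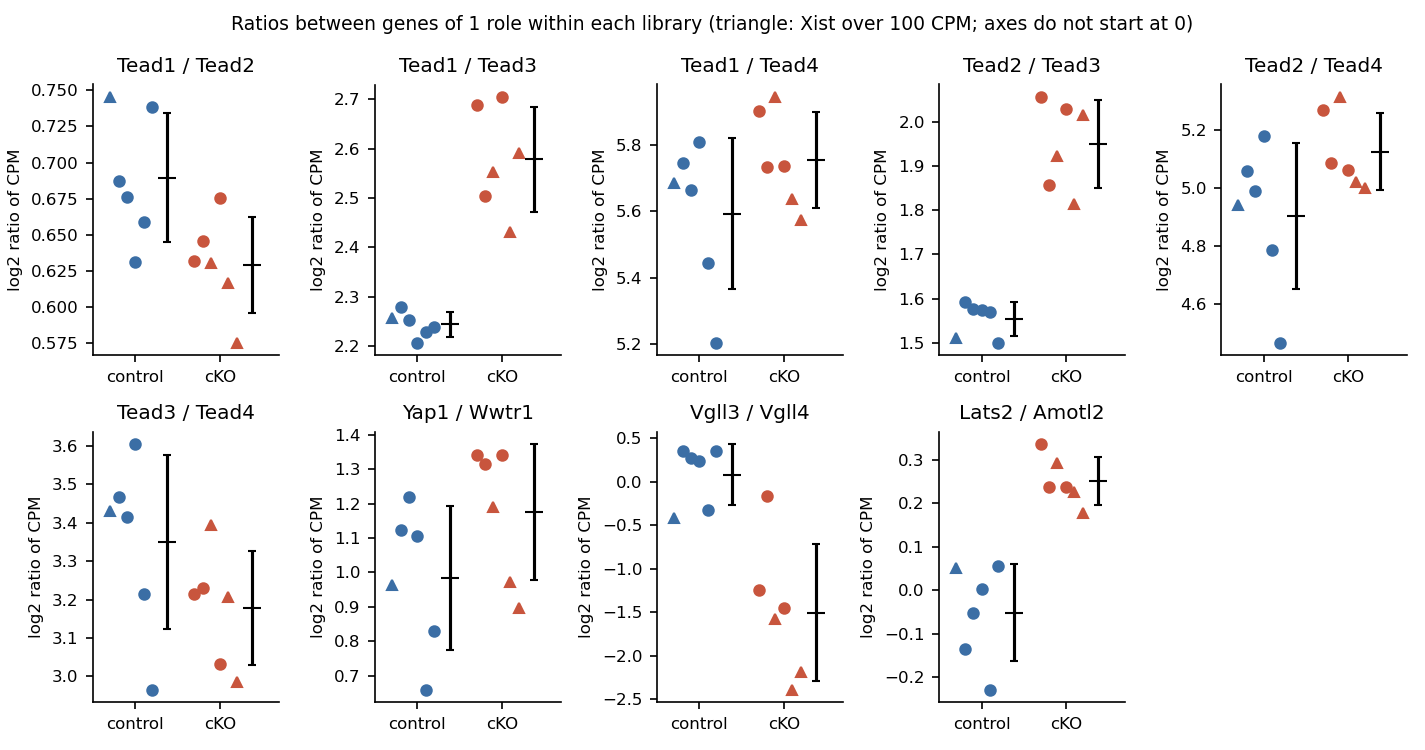
Log2 ratio of CPM between 2 genes of the same role within each library (axes do not start at 0), control in blue and cKO in red, replicates 1 to 6 from left to right, triangles for libraries with Xist over 100 CPM and black bars for mean and SD (n = 6). Tead1 to Tead3, Tead2 to Tead3 and Lats2 to Amotl2 do not overlap between groups, and each was higher in cKO by 0.30 to 0.39.

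Both coactivators were abundant, and neither passed the test. Yap1 (Entrez Gene 22601, chr9:7931999-8004596, minus strand) ran from 176 to 249.6 CPM in the controls, with a median of 223, and from 189 to 229 CPM in the cKO pools, with a median of 216. The groups overlapped almost fully, with a log2 fold change of -0.06 (SE 0.08, 95% interval -0.24 to 0.12, adjusted p = 0.678) that was 0.07 in the low-Xist libraries.

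Wwtr1 (Entrez Gene 97064, chr3:57455644-57575910, minus strand) came nearest to a call. It was at 128, 100.5, 99.6, 105, 111 and 120.2 CPM in the controls and at 88.3, 92.2, 94.7, 85.1, 96.6 and 102 CPM in the cKO pools, so 5 of 6 cKO pools were under all controls. The log2 fold change was -0.25 (SE 0.07, 95% interval -0.41 to -0.09, adjusted p = 0.0505). It was called without control replicate 1 (-0.21, adjusted p = 0.0462), without control replicate 3 (-0.28, adjusted p = 0.0420), with DESeq2's size factors (-0.25, adjusted p = 0.0481) and by DESeq2 (-0.25, adjusted p = 0.0175), and over all libraries left out in turn its adjusted p ran from 0.0420 to 0.115. In the low-Xist libraries the value was -0.27 (adjusted p = 0.0671), with 3 of 3 cKO pools under all controls. The ratio of Yap1 to Wwtr1 was higher by 0.19 on the log2 scale (exact p = 0.136, adjusted 0.175), and by 0.34 in the low-Xist libraries.

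Of the vestigial-like cofactors, Vgll3 showed the largest difference of the 10 genes and Vgll4 showed almost none. Vgll3 (Entrez Gene 73569, chr16:65815633-65863066, plus strand), a cofactor of mesenchymal cells, was at 15.5, 23.1, 22.0, 22.5, 14.2 and 22.0 CPM in control replicates 1 to 6 and at 8.23, 15.1, 6.52, 6.14, 3.26 and 4.17 CPM in cKO replicates 1 to 6. Of the 6 cKO pools, 5 were under the lowest control, and cKO replicate 2 lay between the 2 lowest controls. The mean fell from 19.9 ± 3.93 to 7.24 ± 4.25 CPM (SD, n = 6 each), a log2 fold change of -1.46 (SE 0.28, adjusted p = 0.00595). It stayed called with any one library left out, at -1.78 to -1.32, and in the low-Xist libraries, at -1.12 (SE 0.26, adjusted p = 0.0257), where 2 of 3 cKO pools were under all controls. Vgll3 varied more among cKO pools than any other of the 10 genes, with a coefficient of variation of 58.7% against 6.35% to 10.3% for the others. Its highest cKO pool, replicate 2, had the most Nr2f2 (119 CPM), and its lowest pair, replicates 5 and 6, had the least (50.2 and 53.6 CPM) and are also high in Xist. Per library, the log2 ratio of Vgll3 to Nr2f2 was lower in cKO by 0.35 in the mean and that of Vgll3 to Pdgfra, an interstitial marker, by 1.18, neither of which was tested.

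Vgll4 (Entrez Gene 232334, chr6:114862090-114921752, minus strand), which opposes YAP at the TEAD proteins, ran from 17.2 to 20.6 CPM in the controls and from 16.8 to 19.4 CPM in the cKO pools. The log2 fold change was -0.03 (SE 0.07, adjusted p = 0.825), and -0.03 (adjusted p = 0.868) in the low-Xist libraries. The ratio of Vgll3 to Vgll4 fell by 1.58 on the log2 scale, from 0.08 ± 0.35 to -1.50 ± 0.79 (exact p = 0.00649, adjusted 0.0146), with 5 of 6 cKO pools under all controls, and by 1.13 in the low-Xist libraries.

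The 2 feedback genes went apart. Amotl2 (Entrez Gene 56332, chr9:102717804-102733417, plus strand) encodes an angiomotin-like scaffold that holds YAP at junctions and is itself a YAP target. It was at 95.5, 96.3, 109, 103, 89.1 and 92.8 CPM in the controls and at 81.5, 85.3, 73.9, 85.5, 71.1 and 74.0 CPM in the cKO pools, so that all 6 cKO pools were under all controls. The mean fell from 97.5 ± 7.10 to 78.6 ± 6.31 CPM (SD, n = 6 each), a log2 fold change of -0.31 (SE 0.07, adjusted p = 0.0122), and with any one library left out it was called at -0.34 to -0.28. In the low-Xist libraries the call was lost (-0.22, SE 0.08, adjusted p = 0.118), although all 3 cKO pools remained under all 5 controls. The cKO pools with high Xist were at 71.1 to 74.0 CPM and those with low Xist at 81.5 to 85.5 CPM. Control replicate 1, also high in Xist, was at 95.5 CPM.

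Lats2 (Entrez Gene 50523, chr14:57689662-57746123, minus strand), the kinase that phosphorylates YAP and TAZ, ran from 76.1 to 105 CPM in the controls and from 83.2 to 103 CPM in the cKO pools, with medians of 97.7 and 95.6. The log2 fold change was -0.01 (SE 0.09, 95% interval -0.20 to 0.17, adjusted p = 0.942), and 0.12 (adjusted p = 0.443) in the low-Xist libraries. The ratio of Lats2 to Amotl2 rose by 0.30 on the log2 scale, from -0.05 ± 0.11 to 0.25 ± 0.06 (exact p = 0.00216, adjusted 0.00649), with all 6 cKO pools above all controls, and by 0.34 in the low-Xist libraries.

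**Figure D3:**
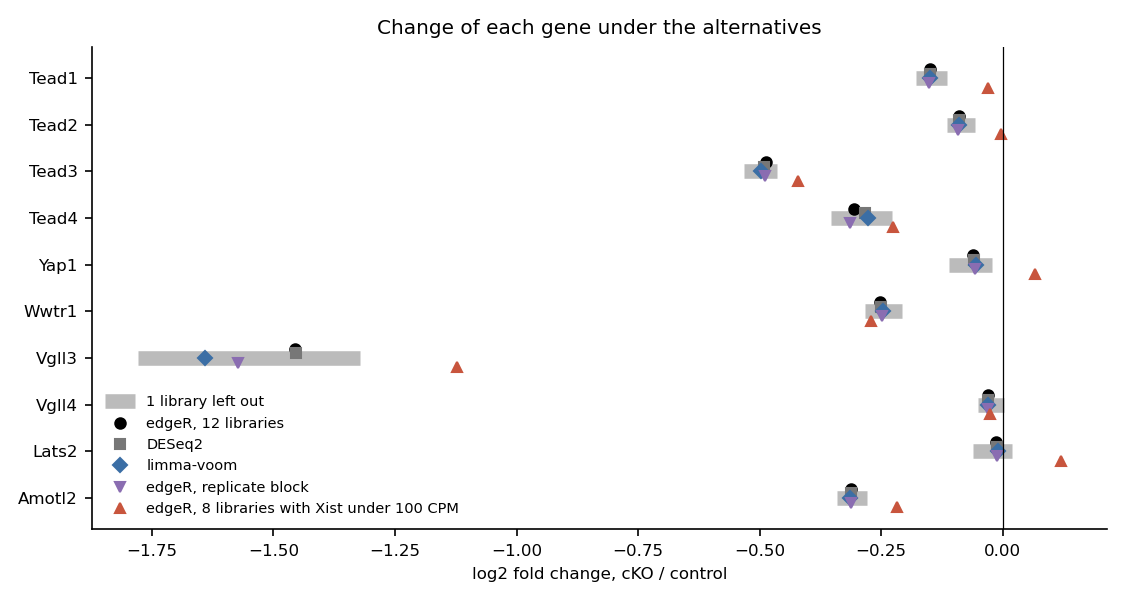
Log2 fold change of each of the 10 genes, cKO over control, with all 12 libraries in edgeR, in DESeq2, in limma-voom, with the replicate number as a block, and without the 4 libraries high in Xist. The grey bar spans the values with each library left out in turn. Yap1, Vgll4 and Lats2 change sign under some of these, and the other genes stay below zero throughout. In the low-Xist libraries the value is higher than in all 12 for 9 of the 10 genes and lower for Wwtr1. The largest shift is that of Vgll3, from -1.46 to -1.12.

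Levels can be compared between genes only per length, so CPM were divided by the kilobases of exon of each gene in GENCODE M21. On this scale Tead2 was highest in the controls at 27.6 ± 1.60 CPM per kb (SD, n = 6), followed by Yap1 at 23.7 ± 2.66 and Wwtr1 at 23.2 ± 2.38. The ranges of these neighbours overlapped, so their order is not resolved, and with the longest transcript as length Yap1 came before Tead2. Tead1 at 15.7 ± 1.05, Amotl2 at 15.5 ± 1.13 and Lats2 at 13.6 ± 1.56 CPM per kb formed a second overlapping group, below Wwtr1 with no overlap on this length. Tead3 was at 6.71 ± 0.42, Vgll4 at 3.43 ± 0.22, Vgll3 at 2.80 ± 0.55 and Tead4 at 1.24 ± 0.22 CPM per kb, of which Vgll4 and Vgll3 overlapped. The choice of length moves these levels: with the longest transcript Vgll4 is 2.45 times, Tead3 1.95 times and Yap1 1.75 times as high, the control means of Wwtr1 (23.6), Amotl2 (22.0) and Tead1 (21.4 CPM per kb) have overlapping ranges, and Vgll4 (7.83 to 9.37) and Vgll3 (2.03 to 3.29 CPM per kb) do not. In cKO testes the order was the same but that Lats2 (13.4 ± 1.28) came before Amotl2 (12.5 ± 1.00), with overlapping ranges, and Vgll3 at 1.02 ± 0.60 came down to the level of Tead4 at 0.991 ± 0.10 CPM per kb, their order turning with the longest transcript as length (1.03 and 1.16).

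**Figure D4:**
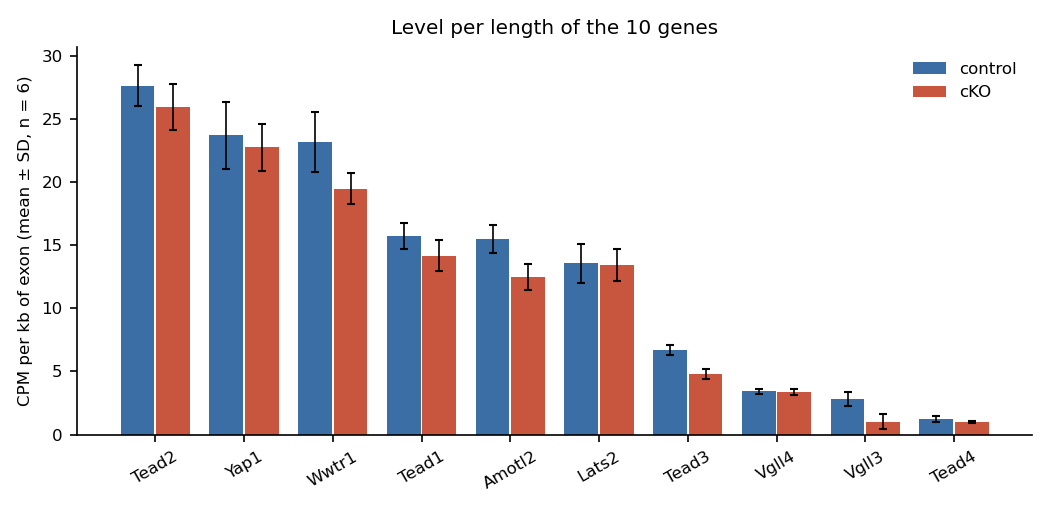
Mean level of each gene in CPM per kilobase of exon in control (blue) and cKO (red) testes, with bars from 0 and error bars of 1 SD (n = 6). Tead2, Yap1 and Wwtr1 are highest, Tead4 is lowest in controls, and in cKO Vgll3 and Tead4 are both lowest, with overlapping ranges.

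Of the summed TEAD level per length, Tead2 made up 53.9% ± 0.85 in controls and 56.5% ± 0.58 in cKO pools (SD, n = 6 each). Tead1 made up 30.6% ± 0.51 and 30.9% ± 0.57. The share of Tead3 was 13.1% ± 0.18 in controls, within 12.8% to 13.3% in every pool, and 10.5% ± 0.65 in cKO pools, within 9.78% to 11.4%. Tead4 made up 2.42% ± 0.42 and 2.16% ± 0.19.

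Of 26 further Hippo genes, among them the kinases, their scaffolds and the junction proteins that feed into them, 24 were tested, none was called lower and 1 was called higher (3.28% of all genes), 4 having an unadjusted p under 0.05, and their median log2 fold change was 0.08. The one called was Mob1b, an activating subunit of the LATS kinases, at 29.2 ± 2.95 CPM in controls and 37.7 ± 4.84 CPM in cKO pools (log2 fold change 0.36, SE 0.09, adjusted p = 0.0291, 4 of 6 cKO pools above all controls). That call was lost without control replicate 3 (adjusted p = 0.0599), 4 (0.0680) or 6 (0.0661) and without cKO replicate 4 (0.0513), 5 (0.0534) or 6 (0.0697), and it held in the low-Xist libraries (0.30, adjusted p = 0.0428). Without control replicate 1, 5 of the 24 were called higher, in a fit that called 3106 of all genes in both directions. In the low-Xist libraries 3 were called higher, beside 1103 of 15586 genes called, 529 of them lower. The largest value of the list, picked after the values were seen, was that of the cadherin Fat4 at 0.52 (SE 0.20, adjusted p = 0.117). Fat4 was at 164 CPM in control replicate 1, which is high in Xist, at 60.1 to 76.8 CPM in the other 5 controls and at 116 to 132 CPM in the cKO pools. Without control replicate 1 its log2 fold change was 0.81 (adjusted p = 3.25e-05), with any other library left out 0.44 to 0.54 (adjusted p 0.152 to 0.224), and in the low-Xist libraries 0.83 (adjusted p = 0.000612).

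The core kinases did not pass, with Stk3 at -0.13 (adjusted p = 0.321), Stk4 at -0.07 (0.554) and Lats1 at 0.08 (0.512), nor did the adaptor Sav1 at 0.10 (0.422). Nf2, which encodes Merlin, an upstream activator of LATS, ran from 110.2 to 151 CPM in controls and from 153 to 169 CPM in cKO pools. All 6 cKO pools were above all controls, but at a log2 fold change of 0.20 (SE 0.08) the adjusted p was 0.121. Vgll1 and Vgll2 did not pass the filter on low counts.

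Of 22 genes known as YAP/TAZ-TEAD targets, a list that holds Amotl2 and Lats2 as well, 20 were tested, 4 were called lower, 1 of them Amotl2, and 1 higher (4.85% and 3.28% of all genes), with 9 at an unadjusted p under 0.05, 16 negative values and a median of -0.12 on the log2 scale. Igfbp3, a binding protein of insulin-like growth factors, was lower in every cKO pool than in every control, at 365 ± 24.1 CPM in controls and 222 ± 41.6 CPM in cKO pools (log2 fold change -0.72, SE 0.11, adjusted p = 0.000975), and was at -0.58 (adjusted p = 0.00640) in the low-Xist libraries. Rbms3, an RNA-binding protein, was at 101 ± 14.8 and 75.1 ± 5.27 CPM (-0.43, SE 0.09, adjusted p = 0.00931), also with no overlap, but did not pass in the low-Xist libraries (-0.37, adjusted p = 0.0756).

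The ligand Tgfb2 was at 78.6 ± 5.66 and 58.8 ± 11.7 CPM (-0.41, SE 0.12, adjusted p = 0.0412) with 6 of 6 cKO pools under all controls. Its call held in only 3 of the 12 fits with one library left out, those without control replicate 1 (adjusted p = 0.0366), cKO replicate 1 (0.0406) or cKO replicate 2 (0.0264), the other 9 giving 0.0548 to 0.0955, and it was lost in the low-Xist libraries (-0.23, adjusted p = 0.129). Nt5e, the surface enzyme that makes adenosine, rose from 36.6 ± 6.45 to 51.0 ± 6.93 CPM (0.49, SE 0.13, adjusted p = 0.0284), with 5 of 6 cKO pools above all controls. The Nt5e call was lost without control replicate 3 (adjusted p = 0.0560) or 4 (0.0532) and without cKO replicate 1 (0.0612), 2 (0.0511) or 4 (0.0706), and it held in the low-Xist libraries (0.55, adjusted p = 0.00317).

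Ccn1 and Ccn2, matricellular proteins and the most used readouts of YAP activity, were not called. Ccn2 ran from 23.7 to 26.5 CPM in controls and from 14.0 to 24.5 CPM in cKO pools (-0.31, SE 0.10, adjusted p = 0.0842, 5 of 6 cKO pools under all controls) and passed only by DESeq2 (adjusted p = 0.0359) and without cKO replicate 2 (-0.37, adjusted p = 0.0391). Ccn1 was at 23.0 ± 1.93 and 20.8 ± 2.82 CPM (-0.13, adjusted p = 0.392). Ankrd1 and Foxf2 did not pass the filter, Ankrd1 having 0 to 16 counts per library. The number of targets called moved with the libraries. It ran from 3 without control replicate 3, control replicate 4 or cKO replicate 4 to 8 without control replicate 1. That last fit called 3106 of all genes. In the low-Xist libraries 1 target was called lower and 2 higher, beside 1103 of 15586 genes called, 529 of them lower.

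**Figure D5:**
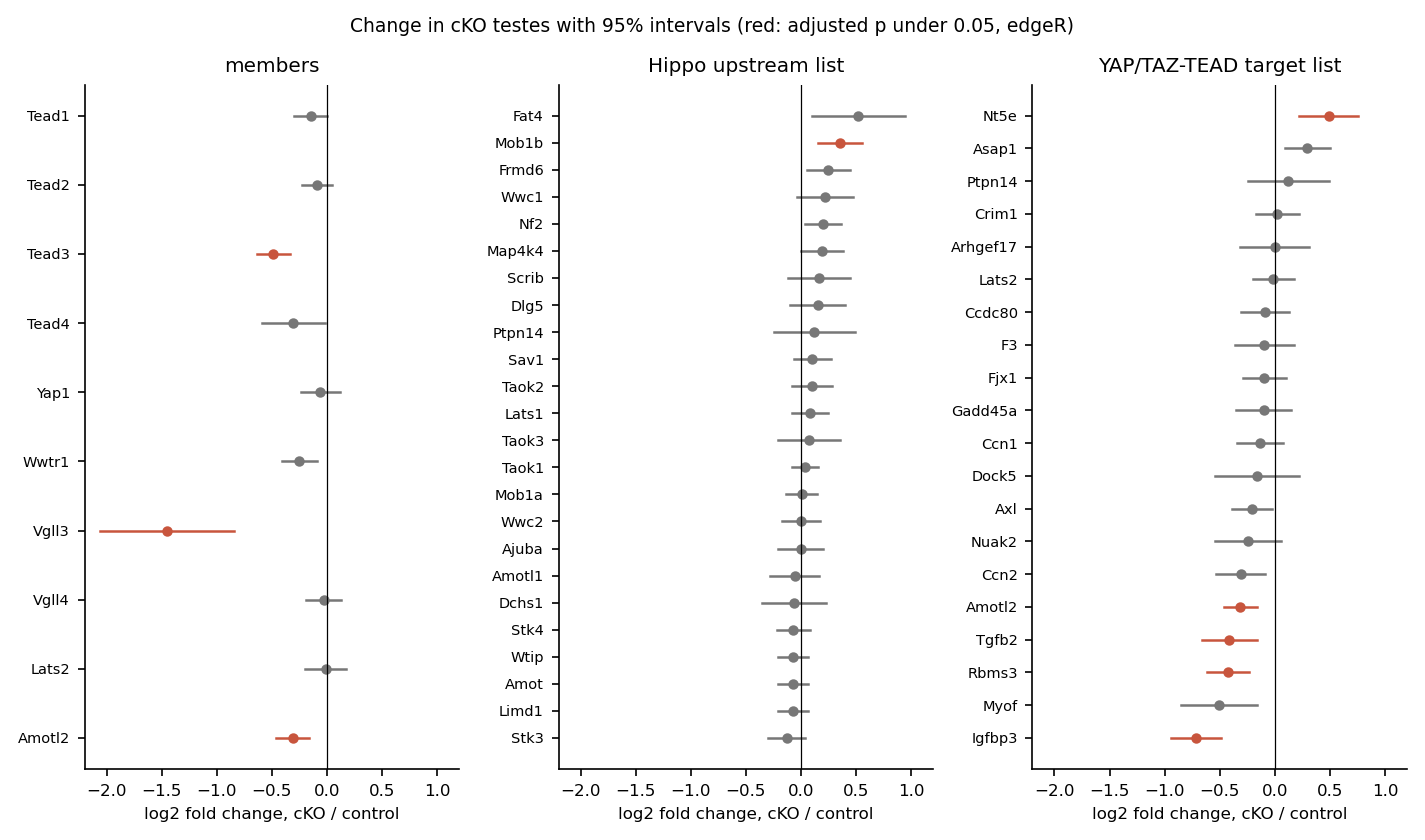
Log2 fold change, cKO over control, with its 95% interval for the 10 genes (left), the tested genes of the Hippo upstream list (middle) and those of the YAP/TAZ-TEAD target list (right), red where edgeR's adjusted p was under 0.05. The 3 called of the 10 lie at -1.46, -0.49 and -0.31, 1 upstream gene is called higher, and 4 targets are called lower and 1 higher.

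In these whole-testis libraries fewer cells of a type and less RNA per cell cannot be told apart, and which cells express the 10 genes was not measured here. Of 10 interstitial progenitor markers, 2 were called lower (Nr2f2, the deleted gene, and Tcf21), the list having a median of -0.06 on the log2 scale and a summed level of 1316 to 1573 CPM in controls and 874 to 1376 CPM in cKO pools. Of 9 contractile markers, 8 were called lower and none higher, with sums of 602 to 739 CPM and 357 to 550.4 CPM (5 called without control replicate 3, cKO replicate 3 or cKO replicate 4), and of 6 fetal Leydig markers 4 were called lower. None of 8 Sertoli and none of 8 germ cell markers was called by edgeR, with 1 and 0 at an unadjusted p under 0.05, and DESeq2 called none either, while 1 Sertoli marker was called lower without control replicate 1 and 1 germ cell marker higher in the low-Xist libraries. Of 8 immune markers 3 were called higher and none lower, the median being 0.50 on the log2 scale, with sums of 37.9 to 53.0 CPM in controls and 56.5 to 70.8 CPM in cKO pools, which did not overlap (5 called without control replicate 5, and 2 in the low-Xist libraries). Of 6 mesonephric epithelium markers 2 were called higher, with a median of 0.72 and overlapping sums of 46.7 to 88.1 and 45.7 to 72.9 CPM, and with one library left out 0 to 3 were called. In the low-Xist libraries the direction of that call turned, with 1 called lower and none higher. Of 6 erythroid, 8 endothelial and 6 ovarian supporting markers 1 each was called lower. With one library left out 0 to 2, 0 to 2 and 0 to 5 were called, the most in each case without control replicate 1. That fit called 3106 of all genes. In the low-Xist libraries no erythroid or endothelial marker was called, and of the ovarian supporting markers 1 was called lower and 3 higher. None of 6 meiosis markers was called by edgeR or DESeq2, with 4 at an unadjusted p under 0.05. Without control replicate 1, 3 were called. Their summed level was 279 CPM in control replicate 1 and 279, 541 and 529 CPM in cKO replicates 3, 5 and 6. These are the libraries high in Xist, and in the others the sum was 99.8 to 166 CPM. The part of these markers in the results above was not tested. Measured directly against Pdgfra in each library, the log2 ratio of Tead3 to Pdgfra differed between groups by -0.05 and that of Amotl2 to Pdgfra by 0.12, within an SD of 0.23 to 0.27 in each group, whereas that of Vgll3 differed by -1.18 with 5 of 6 cKO pools under all controls. Pdgfra itself was at 555 ± 63.1 and 417 ± 87.6 CPM (adjusted p = 0.0649).

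Within groups, the 10 genes did not vary as 1 block. Over the 12 libraries, deviations of log2 CPM from the group means were most alike for Tead1 and Tead2 (Pearson r 0.94, n = 12). Tead1, Tead2, Yap1, Lats2 and Amotl2 were all alike to each other at 0.67 or more. Tead3 and Vgll3 each had r between 0.60 and 0.77 with these genes. Wwtr1 went against Amotl2 (r -0.64) and Tead2 (r -0.41), and Tead4 and Vgll4 had r between -0.54 and 0.35 with the rest. Of the genes averaging 10 CPM or more, those most like Vgll3 were Otof (r 0.97), Itga4 (0.96) and Dtx4 (0.96), which were themselves lower in cKO testes at -1.60, -1.35 and -0.83 on the log2 scale (adjusted p 0.000994, 0.00430 and 0.00499). Those most like Tead3 were Brsk1 (0.85), Igfbp4 (0.83) and Sun2 (0.83), and those most like Amotl2 were Tead2 (0.93), Rasl12 (0.92) and Pif1 (0.91), of which Igfbp4 was called lower (-0.35, adjusted p = 0.00749) and the other 5 were not called (adjusted p 0.103 to 0.785). All these points share libraries, and with them depth, cell makeup and the split by Xist, so they are descriptions over 12 libraries.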

How the data were processed

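The members and gene lists were chosen with earlier results of these data known. RNA was measured in 6 control and 6 cKO pools of testes. Per the labels and the methods of the study, the authors trimmed reads with Trim Galore 0.6.7, aligned them to mm10 with STAR 2.5 and counted read pairs by strand on RefSeq Curated genes with featureCounts (Subread 1.5.0-p1). The deposited counts are whole numbers per gene, neither normalized nor filtered. No other gene interval in the table overlapped the 10 genes.

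Counts were fitted in R 4.3.3 with edgeR 4.0.16 (TMM scaling, filterByExpr with a minimum count of 10 and total of 15, quasi-likelihood test of cKO against control, no covariate), with Benjamini-Hochberg adjustment over the 15572 genes tested and a threshold of 0.05. On simulated counts for these groups, 145 of 200 changed genes were recovered, 80 at the larger and 65 at the smaller fold. There were 6 false among 151 calls over 15658 genes tested. DESeq2 recovered 157 with 31 false among 188 calls over 20792 genes. For genes past edgeR's filter the counts were drawn with dispersions fitted by edgeR, so they do not rank these tools on the real data. CPM use TMM-scaled library sizes, and log2 CPM for likeness a prior count of 2. Intervals are 95%. Libraries held 7044531 to 59404778 counts, and the lowest counts in any library were 24 (Vgll3), 25 (Tead4), 119 (Vgll4) and 231 (Tead3), where counting error makes up part of the spread between pools. No pair of libraries held identical values. Samples with the same replicate number deviated together with r between -0.33 and 0.24, so the numbers were not taken as pairs. Named genes were the 10 members, from each list the called genes (up to 8 by adjusted p), Ccn1, Ccn2, Ankrd1, Lats1, Stk3, Stk4, Sav1 and Nf2, and the 3 genes most like each called member. Foxl2, Pdgfra and Tcf21 were named as markers after their values were seen. Alternatives were DESeq2's size factors, no filter, DESeq2 1.42.0, limma-voom 3.58.1, the replicate block, each library left out, libraries with Xist at or under 100 CPM, and the longest transcript as length, which moved most levels per kb by more than 1 SD.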

Additional observations from a re-analysis of the deposited data

Results flagged for a closer look

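Among 46 groups of 6 libraries checked over 23 named genes, 3 held a library far from the other 5, where chance gives about 1 in 20. Tead3 was at 37.2 CPM in cKO replicate 2, the next pool being at 32.0 CPM, and still lay under all controls. Tead4 was at 5.93 CPM in control replicate 6, the library with the fewest counts, the next control being at 4.53 CPM. Nf2 was at 110.2 CPM in control replicate 5, the next control being at 136 CPM. Without that library the log2 fold change of Nf2 was 0.14 (adjusted p = 0.0903 by edgeR).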

How the results depend on the processing

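The number of the 10 genes called was 3 to 4 with any one library left out, 2 in the low-Xist libraries, 3 with the replicate block, limma-voom or no filter, and 4 with DESeq2 or its size factors. Tead3 and Vgll3 were called under all 18 alternatives and Amotl2 under 17. With each library left out, the upstream count ran from 0 to 5 (main 1), the target count from 3 to 8 (main 5) and the count over all genes from 816 (cKO replicate 4 left out) to 3106 (control replicate 1 left out; main 1266, 756 lower and 510 higher). DESeq2, which made more false calls on counts simulated with edgeR's dispersions, gave 8 targets and 1905 genes. The low-Xist libraries gave 3 upstream genes, 3 targets and 1103 genes, 529 lower and 574 higher. Values near zero changed sign there for Yap1 (0.067) and Lats2 (0.12). With a library left out, Lats2 ran from -0.062 to 0.019 and Vgll4 from -0.051 to 0.0027. The cause was not tested.

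With the replicate number as a block, 3 of the 10 genes, 1 upstream gene, 5 targets and 931 genes were called, Tead3 at -0.49 (adjusted p = 0.00682), Vgll3 at -1.57 (0.00566) and Amotl2 at -0.31 (0.0229), while Mob1b (0.35, adjusted p = 0.0805), Nt5e (0.50, 0.0593) and Tgfb2 (-0.43, 0.0619) were not. The numbers mark no shared animal or litter in the labels, and none of the 6 control libraries correlated best with the cKO library of its own number. Depth limits Vgll3, Tead4 and Vgll4 most, at 24, 25 and 119 counts in their lowest library.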
